A study of Mus musculus with 20 samples.

Results

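Heat shock chaperones were followed in mouse mammary tumors and tumor cells that had or lacked the lysosomal protease cathepsin D (CTSD). The set held 10 genes taken by symbol: Hspa8, Hspa1a, Hspa1b, Hsph1, Hsp90aa1, Hsp90ab1, Dnajb1, Bag3, Hspb1 and Hsf1, out of 45706 gene identifiers in the count files. All 10 passed the filter on low counts in both materials and stood among the 18617 genes tested in tumors and the 15178 tested in cells. The largest differences lay in cultured cells: after long culture in poor medium the inducible genes Hspa1b, Hspa1a and Hsph1 were 6.13-fold, 3.63-fold and 3.25-fold higher in Ctsd+/+ cells, and for the same step in Ctsd-/- cells edgeR called 0 of the 10 genes (2 at an unadjusted p under 0.05) and DESeq2 1, Hspb1, which was lower. Over all genes tested, that step had 23.0% called higher and 23.4% lower in Ctsd+/+ cells, but 1.57% and 0.810% in Ctsd-/- cells. In tumors, 1 of the 10 genes passed the unadjusted threshold, beside 8.44% of all genes higher and 8.27% lower. At an adjusted p of 0.05, 0 of the 10 passed.

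RNA was sequenced from 8 tumors and 12 cell samples, all from mice with the PyMT oncogene under the MMTV promoter, which is active in mammary epithelium. Tumors were taken at 18 weeks of age from 4 control and 4 MMTV-cre;Ctsd-/- mice. Controls carried the untargeted or the floxed Ctsd allele and were CTSD-competent. MMTV-cre deletes Ctsd in mammary epithelium, so stroma, vessels and immune cells of the tumor keep it. The cells were spontaneously immortalized primary tumor cells of one Ctsd+/+ and one MMTV-cre;Ctsd-/- mouse, so genotype and cell line cannot be told apart. Both lines grew in a mild starvation medium with 1% fetal calf serum (FCS), either for 10 days ("1% FCS") or for 12 weeks ("1% FCS LT", long-term), and each line was sampled in 3 replicates per time. The replicates of a cell group share their line, and p-values of cells measure the spread between cultures of that line.

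Heat shock proteins are molecular chaperones: they bind unfolded stretches of other proteins, keep them from clumping and help them fold. The HSP70 machine works in a cycle driven by ATP, in which a J-domain protein delivers the client and a nucleotide exchange factor releases it, and clients may then pass to HSP90, which finishes the folding of kinases and hormone receptors. Some members are made at all times, others mainly after heat, oxidation or proteasome block. The transcription factor HSF1 is then freed from chaperones and binds heat shock elements in their promoters. HSC70, the product of Hspa8, also carries proteins to lysosomes in chaperone-mediated autophagy.

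Counts on genes were 49725437 to 64291587 in the tumors and 33622831 to 40239762 in the cells. Levels below are CPM, counts relative to the library size after scaling with the trimmed mean of M-values (TMM), separately in tumors and in cells unless both are named together. Ctsd itself was at 1780.3 to 2616 CPM in control tumors and at 360.04 to 1294 CPM in MMTV-cre;Ctsd-/- tumors, or −1.25 as log2 fold change (log2 FC; standard error, SE, 0.380) with an adjusted p of 0.463. In cells it fell in Ctsd-/- samples by 4.16 on the log2 scale in 1% FCS and by 3.74 in 1% FCS LT. In bulk RNA, fewer cells of a type and less RNA per cell cannot be told apart. Cell type markers differed between groups. Summed over 5 fibroblast markers, levels were 607 to 2350.4 CPM in Ctsd+/+ cells in 1% FCS. In the other 3 cell groups they were 3.00 to 14.8 CPM. Only 3 of these 5 markers, Col1a1, Col1a2 and Pdgfra, passed the filter on low counts in cells. Of the 5, 1 had 3 counts or fewer in every Ctsd+/+ sample in 1% FCS. The summed level of 4 epithelial markers was 840 to 1633 CPM in Ctsd+/+ cells in 1% FCS. It was 3970.3 to 9614 CPM in the other 3 cell groups. In tumors, 4 adipocyte markers summed to 338 to 3647 CPM in controls and 2430 to 13202 CPM in MMTV-cre;Ctsd-/-. T cell and adipocyte markers had 3 counts or fewer per gene in all 12 cell samples.

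Several of these genes share sequence with other genes, and reads that map to more than one place were not counted. In the longest coding transcript of Hspa8, 62.8% of all 100-base windows recur in another annotated gene, mostly processed pseudogenes such as Gm15459. The figure was 48.6% for Hspa1a and 49.9% for Hspa1b, which share windows with each other and with Hspa1l. It was 47.5% for Hsp90aa1 and 42.7% for Hspb1, shared with pseudogenes. Hsph1, Hsp90ab1, Dnajb1, Bag3 and Hsf1 shared no such window. Levels of the first group are therefore uncertain, and so is the split between Hspa1a and Hspa1b. The 564 exon bases that Hspa1a shares with the opposite-strand gene Gm20481 add to this in tumors, whose libraries were counted without regard to strand.

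The 2 inducible HSP70 genes lie side by side on chromosome 17 on the minus strand, Hspa1b at 34956436 to 34959238 and Hspa1a at 34969190 to 34972156 (build GRCm38). Hsph1 lies on chromosome 5 at 149614287 to 149636376, also on the minus strand. The 250 bases before the start sites of these 3 genes are shown because they are the ones that rose most together in Ctsd+/+ cells. Sequences are from RefSeq (GRCm38.p6), 5′ to 3′ on the strand of the gene, with 2-unit heat shock elements (GAANNTTC or TTCNNGAA, each its own reverse complement, so both strands are covered) in capitals.
Hspa1a (chr17:34972157-34972406, minus strand): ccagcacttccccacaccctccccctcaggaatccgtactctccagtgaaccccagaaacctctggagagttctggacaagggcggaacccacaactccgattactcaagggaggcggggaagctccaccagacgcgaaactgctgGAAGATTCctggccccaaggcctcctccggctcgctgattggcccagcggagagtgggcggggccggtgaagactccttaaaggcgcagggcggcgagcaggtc
Hspa1b (chr17:34959239-34959488, minus strand): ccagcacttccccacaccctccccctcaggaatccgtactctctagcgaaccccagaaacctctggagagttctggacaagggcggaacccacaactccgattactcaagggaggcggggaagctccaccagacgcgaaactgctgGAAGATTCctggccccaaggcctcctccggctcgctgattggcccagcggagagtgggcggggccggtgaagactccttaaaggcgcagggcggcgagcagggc
Hsph1 (chr5:149636337-149636586, minus strand): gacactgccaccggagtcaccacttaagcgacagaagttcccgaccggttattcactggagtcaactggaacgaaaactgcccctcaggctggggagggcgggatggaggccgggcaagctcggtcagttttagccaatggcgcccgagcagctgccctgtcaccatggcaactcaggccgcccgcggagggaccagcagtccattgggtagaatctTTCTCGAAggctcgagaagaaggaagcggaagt
The upstream stretches of Hspa1a and Hspa1b differ at 3 of 250 bases, and both hold GAAGATTC 104 bases before the start. The Hsph1 stretch holds TTCTCGAA 33 bases before the start. It is one of 2 start sites given for that gene. Of the 10 genes, 6 had a RefSeq window of 250 bases before to 50 bases after the start (Hspa1a, Hspa1b, Hsph1, Dnajb1, Bag3 and Hspb1). A 2-unit match stood in the windows of 5 of these 6, beside 15.1% of all 32851 windows. Hspb1 had 2 of them, 117 and 97 bases before its start, and Bag3 had 1, 42 bases after it, whereas Dnajb1 had none. The longer 3-unit form (GAANNTTCNNGAA on either strand, which contains both 2-unit forms) stood in 0.603% of all windows and, among these genes, in that of Hsph1 alone, 36 bases after the start. A match is a description of letters and was not tested for binding.

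Per kilobase of merged exon, Hsp90ab1 was the most abundant of the 10 in all 6 groups, from 899 ± 169 CPM per kb (SD, n = 4) in control tumors to 1657 ± 109 (SD, n = 3) in Ctsd+/+ cells in 1% FCS LT. Hspa8 came next, with 361 ± 69.7 to 620.3 ± 149 CPM per kb across the groups, followed by Hsp90aa1 with 76.0 ± 14.4 to 247 ± 15.9. Hspa1a was at 1.64 ± 0.507 to 5.99 ± 1.72 CPM per kb and was the lowest of the 10 in every cell group. In tumors it stood beside Hspa1b, at 1.64 and 1.91 CPM per kb in controls and at 1.90 and 1.76 in MMTV-cre;Ctsd-/-, and those pairs differ by less than their spread. The first place depends on the length used and on the reads left out of Hspa8: per kilobase of the longest coding transcript, Hsp90ab1 stayed first in 5 groups, but in control tumors Hspa8 was at 1114 ± 268 and Hsp90ab1 at 1070.3 ± 201 CPM per kb (SD, n = 4), which differ by less than their spread. The 10 genes together took 0.591% ± 0.0917 of the counts of control tumors, 0.611% ± 0.0788 of those of Ctsd+/+ cells in 1% FCS and 0.833% ± 0.0145 of those of Ctsd+/+ cells in 1% FCS LT. In Ctsd-/- samples the share was 0.524% ± 0.0991 in tumors, 0.801% ± 0.0406 in 1% FCS and 0.737% ± 0.0889 in 1% FCS LT.

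**Figure D1:**
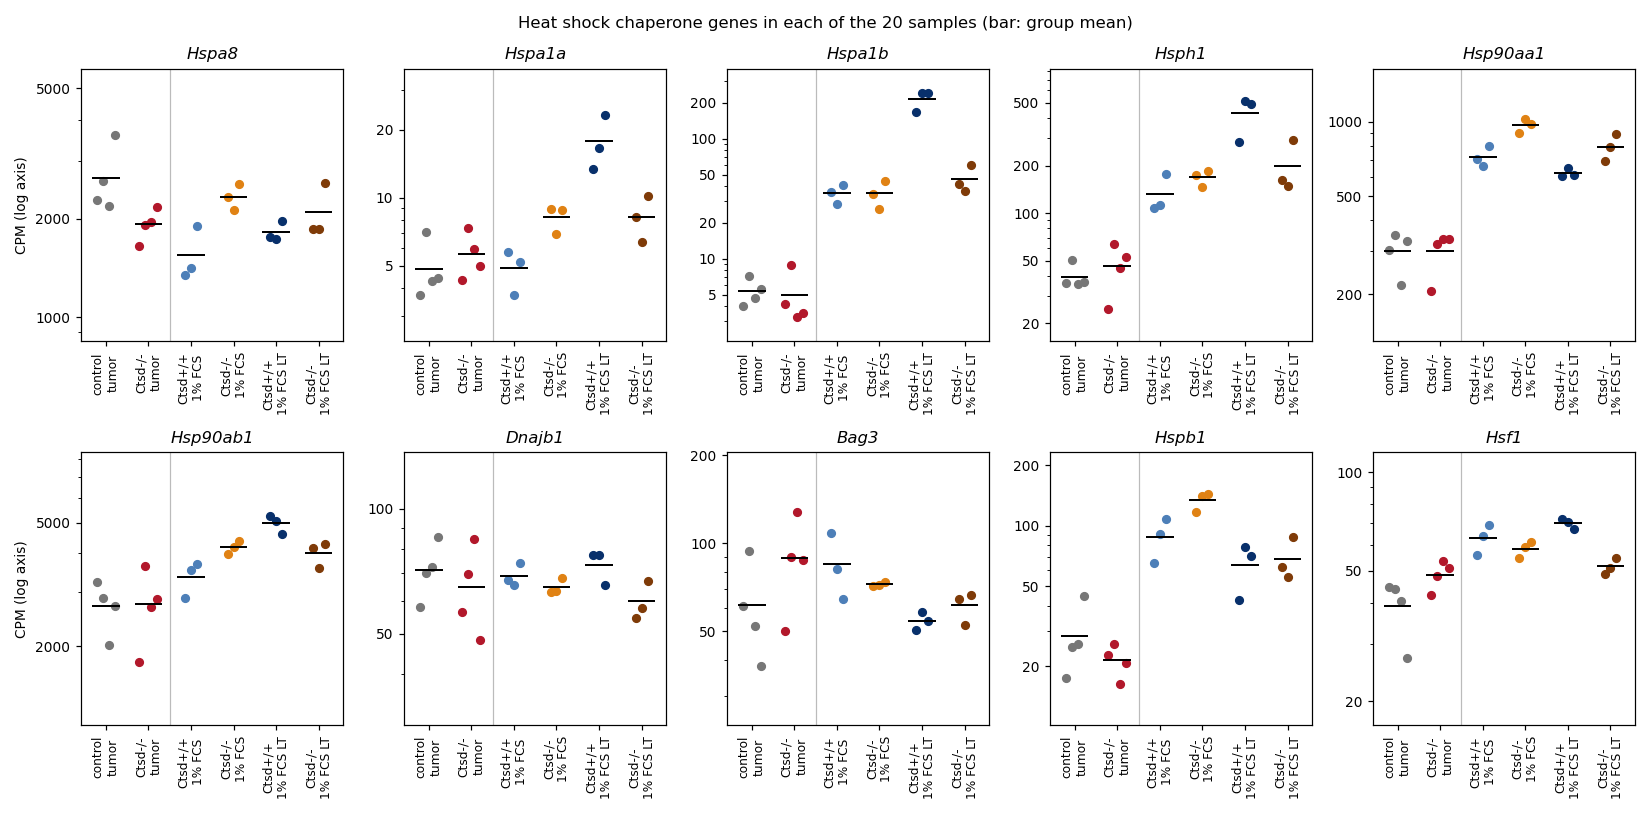
CPM of each of the 10 genes (y axes, log scale) in every sample, grouped along the x axis, with a bar at the group mean. Tumors, left of the gray line, were scaled apart from cells. Hspa1b, Hspa1a and Hsph1 stand highest in Ctsd+/+ cells in 1% FCS LT, where Hspa1b reached 167 to 240.0 CPM.

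Long culture was compared with short culture within each line, to see how each line's chaperone genes differ between 10 days and 12 weeks in the poor medium. Hspa1b, the main stress-inducible HSP70, had 36.2, 28.5 and 40.8 CPM in Ctsd+/+ replicates 1 to 3 in 1% FCS and 167, 240.0 and 239 CPM in 1% FCS LT. The lowest long-term sample was above the highest short-term one by a wide margin, and the log2 FC was 2.61 (SE 0.250, adjusted p = 8.14e-06). In Ctsd-/- cells the values were 34.4, 25.8 and 44.7 CPM in 1% FCS and 42.1, 36.8 and 60.5 CPM in 1% FCS LT. These groups overlapped, with a log2 FC of 0.41 (95% interval −0.11 to 0.93, adjusted p = 0.4). The 3 groups other than Ctsd+/+ cells in 1% FCS LT thus lay within 25.8 to 60.5 CPM. Fibroblast markers were at 607 to 2350.4 CPM in one of them and at 4.90 to 14.8 CPM in the others, and their part in the Hspa1b levels was not tested.

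Hspa1a, which encodes nearly the same protein as Hspa1b, followed at a lower level. Ctsd+/+ cells had 5.72, 3.72 and 5.21 CPM in 1% FCS and 13.4, 16.5 and 23.4 CPM in 1% FCS LT, from 122 to 199 and from 496 to 922 counts. Its log2 FC was 1.86 (SE 0.256, adjusted p = 0.000122), and the groups did not overlap. Ctsd-/- cells had 8.88, 6.90 and 8.87 CPM in 1% FCS and 8.18, 6.36 and 10.2 CPM in 1% FCS LT, which overlapped (log2 FC 0.0078, 95% interval −0.53 to 0.55). The ratio of Hspa1b to Hspa1a counts was not constant: it was 7.28 ± 0.83 and 12.4 ± 2.13 in Ctsd+/+ cells in 1% FCS and 1% FCS LT, 4.22 ± 0.711 and 5.62 ± 0.410 in Ctsd-/- cells (SD, n = 3), and 1.12 ± 0.111 and 0.857 ± 0.285 in control and MMTV-cre;Ctsd-/- tumors (SD, n = 4). Tumor counts ignored strand and cell counts did not, so the ratios of tumors and cells are not on one measure. With the counts of both genes summed, an alternative chosen after the data were seen, the pair rose 5.82-fold in Ctsd+/+ cells (log2 FC 2.54, SE 0.241, adjusted p = 7.7e-06).

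Hsph1 encodes HSP110, which releases nucleotide from HSP70 and helps it dissolve aggregates. In Ctsd+/+ cells it rose from 107, 113 and 177 CPM in 1% FCS to 284, 517 and 490.2 CPM in 1% FCS LT, with no overlap (log2 FC 1.70, SE 0.300, adjusted p = 0.000707). The Ctsd-/- values of 175, 146 and 185 CPM in 1% FCS and 162, 148 and 291 CPM in 1% FCS LT overlapped (log2 FC 0.25, 95% interval −0.39 to 0.88). Replicate 3 of the Ctsd-/- 1% FCS LT group, at 291 CPM, stood above its group, and without it the log2 FC was −0.12.

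Hspa8 encodes HSC70, the HSP70 that is present without stress. Ctsd+/+ cells had 1348, 1414 and 1897 CPM in 1% FCS and 1759, 1734 and 1963 CPM in 1% FCS LT, which overlapped (log2 FC 0.23, adjusted p = 0.301). In Ctsd-/- cells it was at 2319, 2118 and 2553 CPM and then at 1856, 1862 and 2562 CPM (log2 FC −0.15, adjusted p = 0.688). Both lines overlapped between the times.

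Of the cytosolic HSP90 genes, only Hsp90ab1 passed the test in Ctsd+/+ cells. Hsp90ab1, the constitutive isoform, rose from 2857, 3512 and 3691 CPM to 5251, 5042 and 4610.4 CPM, with no overlap (log2 FC 0.57, SE 0.142, adjusted p = 0.00642). Hsp90aa1, the isoform known as inducible, was at 707, 661 and 802 CPM and then at 605, 647 and 609 CPM. It was lower in every long-term sample but did not pass the test (log2 FC −0.22, adjusted p = 0.157). Ctsd-/- cells had 3956, 4185 and 4348 CPM of Hsp90ab1 in 1% FCS and 4129, 3567 and 4262 CPM in 1% FCS LT, which overlapped. Their Hsp90aa1 level was 904, 1027 and 981 CPM and then 693, 793 and 893 CPM (log2 FC −0.29, adjusted p = 0.233), lower in every long-term sample without passing the test.

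Bag3 was the only gene of the 10 called lower with time in Ctsd+/+ cells. BAG3 is a nucleotide exchange factor that steers HSP70 clients to autophagy. In Ctsd+/+ cells it went from 108, 81.9 and 64.7 CPM to 50.6, 58.2 and 54.3 CPM, a log2 FC of −0.64 (SE 0.161, adjusted p = 0.0064), with no overlap. Among the 8 samples with the library label code LR-38862 alone its log2 FC was −0.43 (adjusted p = 0.0531). In Ctsd-/- cells it was at 71.6, 71.9 and 73.8 CPM and then at 64.6, 52.6 and 66.7 CPM (log2 FC −0.24, adjusted p = 0.477).

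Dnajb1, the J-domain partner of HSP70 known as HSP40, was at 65.3 to 73.9 CPM in Ctsd+/+ cells in 1% FCS and at 65.4 to 77.4 CPM in 1% FCS LT (log2 FC 0.09, adjusted p = 0.508). It was at 63.2 to 68.1 and 54.6 to 67.0 CPM in Ctsd-/- cells (log2 FC −0.12). Hsf1, which encodes the heat shock factor itself, was at 55.8 to 69.1 and 66.9 to 71.8 CPM in Ctsd+/+ cells (log2 FC 0.15, adjusted p = 0.235) and at 54.8 to 61.0 and 49.0 to 54.8 CPM in Ctsd-/- cells (log2 FC −0.18). Neither gene passed the test with time in either line. Hspb1, which encodes the small heat shock protein HSP25, a holdase that binds unfolded clients without ATP, had the largest difference of the 10 in Ctsd-/- cells. It was at 117, 140.5 and 145 CPM in 1% FCS and at 62.0, 55.7 and 88.1 CPM in 1% FCS LT, with no overlap (log2 FC −0.97, SE 0.246, adjusted p = 0.0652). In Ctsd+/+ cells it was at 65.1, 90.9 and 108 CPM and then at 42.8, 78.1 and 70.6 CPM (log2 FC −0.46, adjusted p = 0.146). Among the samples with the library label code LR-38862 alone it was called lower there (log2 FC −0.71, adjusted p = 0.0456).

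In all, 4 of the 10 genes were higher and 1 lower with time in Ctsd+/+ cells, where 23.0% of all tested genes were called higher and 23.4% lower. The median log2 FC of the 10 was 0.19, beside 0.0045 over all genes. In Ctsd-/- cells edgeR called 0 of the 10 (2 at an unadjusted p under 0.05, Hspb1 and Hsp90aa1), limma-voom 0 and DESeq2 1, Hspb1, in a comparison in which 1.57% of all genes were called higher and 0.810% lower. The edgeR call of Hspb1 there also appeared without Ctsd+/+ 1% FCS replicate 1, Ctsd+/+ 1% FCS LT replicate 1 or Ctsd-/- 1% FCS LT replicate 3 (log2 FC −0.97, −0.97 and −1.19). Fibroblast markers were at 607 to 2350.4 CPM in Ctsd+/+ cells in 1% FCS and at 3.00 to 7.50 CPM in 1% FCS LT, and were at 4.90 to 14.8 CPM at both times in Ctsd-/- cells. Of 4 macrophage markers, the summed level was 75.6 to 94.5 CPM in Ctsd+/+ cells in 1% FCS LT, the group in which Hspa1b, Hspa1a and Hsph1 were high, and 18.3 to 50.5 CPM in the other 3 cell groups. Csf1r was 8.61-fold and Cd14 1.97-fold higher there than in 1% FCS (adjusted p = 0.000363 and 0.000327), Cd68 was not called, and the defining marker Adgre1 had at most 2 counts in any sample of that group. The same 3 samples had 3.15% to 4.41% of their counts on mitochondrial genes and 6.27% to 7.05% of reads with several positions, against 1.43% to 2.56% and 4.57% to 5.64% in the other 9. Immediate early genes respond to handling among other stimuli. In Ctsd+/+ cells 8 of them summed to 507 to 558 CPM in 1% FCS and 425 to 515 CPM in 1% FCS LT. Their sums in Ctsd-/- cells were 329 to 442 and 249.5 to 362 CPM. The part of any of these in the results was not tested.

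**Figure D2:**
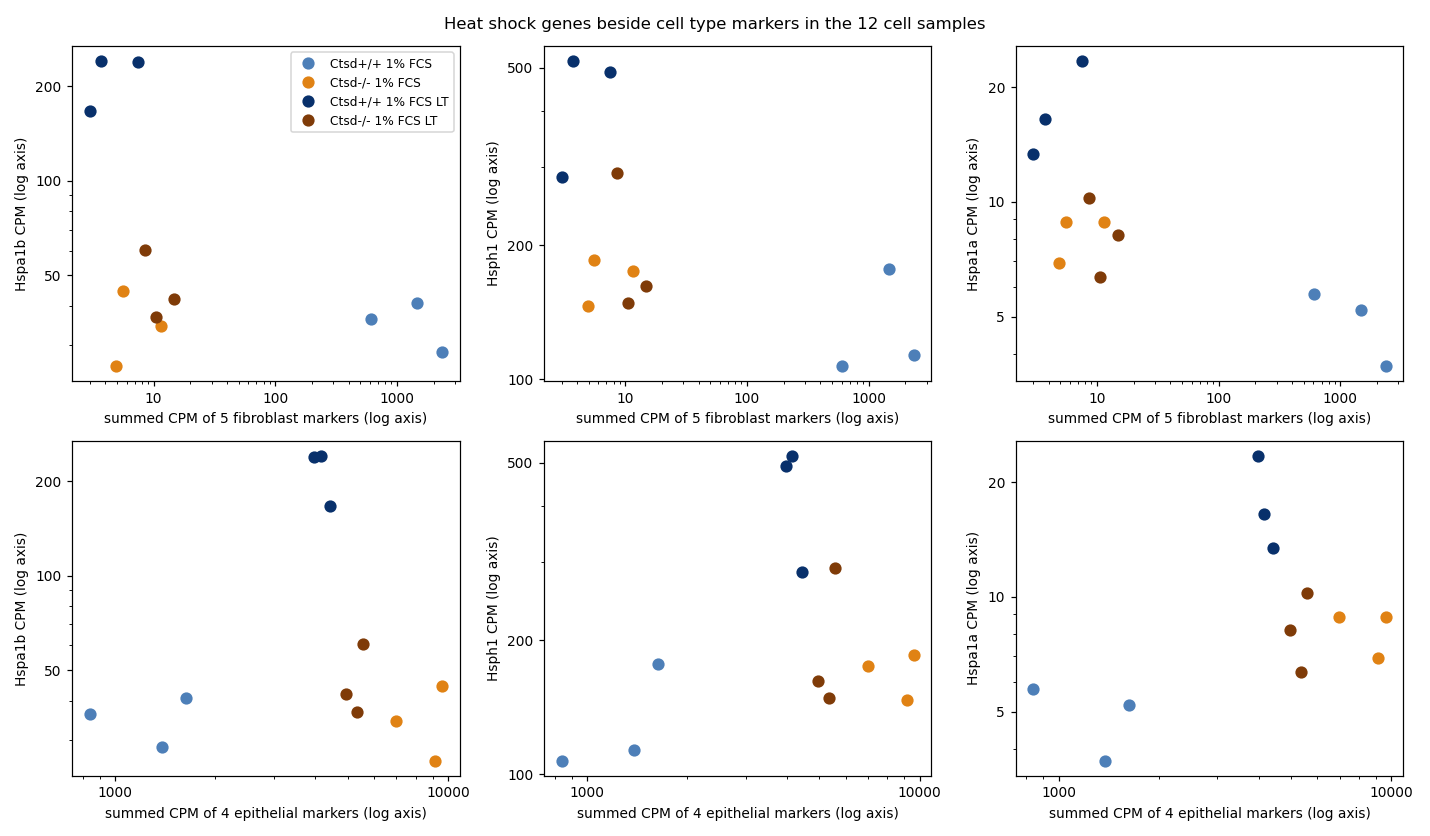
CPM of Hspa1b, Hsph1 and Hspa1a (y axes, log scale) against the summed CPM of 5 fibroblast markers (top) and 4 epithelial markers (bottom; x axes, log scale), 1 point per cell sample. Ctsd+/+ cells in 1% FCS stand apart on the fibroblast axis at 607 to 2350.4 CPM, and their Hspa1b level lies among those of Ctsd-/- cells. The part of either marker list in these levels was not tested.

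The difference between the 2 lines in their change with time was tested as an interaction, (Ctsd-/- minus Ctsd+/+ in 1% FCS LT) minus (the same in 1% FCS). It was negative for 9 of the 10 genes, with a median of −0.44 beside −0.0035 over all genes, and 4 of the 10 were called lower and 0 higher, beside 14.1% lower and 16.1% higher of all genes tested. Hspa1b had an interaction of −2.20 (SE 0.338, adjusted p = 0.000551), Hspa1a of −1.85 (SE 0.354, adjusted p = 0.00226), Hsph1 of −1.45 (SE 0.415, adjusted p = 0.0206) and Hsp90ab1 of −0.63 (SE 0.200, adjusted p = 0.0333). The first pair was called with each of the 12 samples left out in turn. Hsph1 missed the threshold without Ctsd+/+ 1% FCS LT replicate 2, Ctsd-/- 1% FCS LT replicate 1 or Ctsd-/- 1% FCS LT replicate 2 (adjusted p = 0.0526, 0.0526 and 0.0535), and the number called was then 2. Hsp90ab1 missed it without any of 7 samples: Ctsd+/+ 1% FCS replicate 1, Ctsd-/- 1% FCS replicates 2 and 3, Ctsd+/+ 1% FCS LT replicates 1 and 2, and Ctsd-/- 1% FCS LT replicates 1 and 2, with an adjusted p between 0.0501 and 0.0944, and with no filter on low counts (adjusted p = 0.061). Bag3 was the gene above 0, with 0.40 (adjusted p = 0.208), and Hspa8 (−0.38), Hspb1 (−0.51), Hsf1 (−0.33), Dnajb1 (−0.21) and Hsp90aa1 (−0.07) did not pass the test. Without Ctsd+/+ 1% FCS replicate 3, Bag3 (0.56) and Hsf1 (−0.41) passed it.

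**Figure D3:**
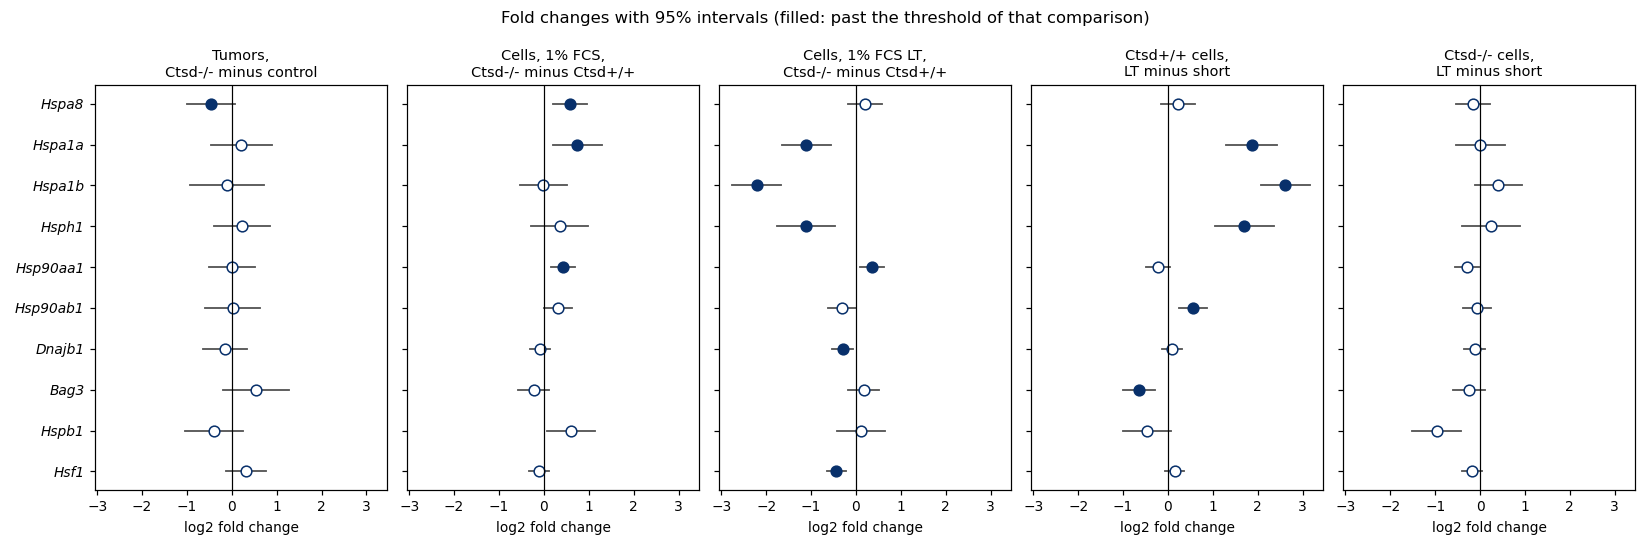
log2 FC (x axes) of the 10 genes in 5 comparisons, with 95% intervals from the edgeR fit. Filled points passed the threshold of that comparison, an unadjusted p under 0.1 in tumors and an adjusted p under 0.05 in cells, and the intervals of Hspa1b, Hspa1a and Hsph1 lie farthest from 0 in Ctsd+/+ cells with time.

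Genotype was then compared at each time. In 1% FCS, 3 of the 10 genes were higher in Ctsd-/- than in Ctsd+/+ cells and 0 lower, beside 23.5% and 25.1% of all genes, and the median log2 FC of the 10 was 0.33. Hspa8 had the values given above, with every Ctsd-/- sample over every Ctsd+/+ sample (log2 FC 0.59, SE 0.172, adjusted p = 0.0146). Hspa1a was higher by 0.75 (SE 0.252, adjusted p = 0.0278) and Hsp90aa1 by 0.42 (SE 0.121, adjusted p = 0.0126), again without overlap. Hspa1b was level with 35.2 ± 6.20 and 35.0 ± 9.43 CPM (SD, n = 3), a log2 FC of −0.0097 (95% interval −0.53 to 0.51), and with both genes' counts summed the pair did not pass the test (log2 FC 0.11, adjusted p = 0.723). Hspb1 and Hsp90ab1 did not overlap either but missed the threshold (log2 FC 0.61 and 0.31, adjusted p = 0.0585 and 0.089), and DESeq2 called both. EdgeR called Hspb1 with no filter on low counts (adjusted p = 0.0248) and without Ctsd+/+ 1% FCS replicate 3, Ctsd+/+ 1% FCS LT replicate 1 or Ctsd-/- 1% FCS LT replicate 3 (adjusted p = 0.0347, 0.0294 and 0.0435). Calls depended on single samples: without Ctsd+/+ 1% FCS replicate 2 or Ctsd-/- 1% FCS replicate 3 only Hsp90aa1 was called, Hspa1a was also lost without Ctsd-/- 1% FCS replicate 1 (adjusted p = 0.07), and 5 genes were called without Ctsd+/+ 1% FCS replicate 3. Fibroblast markers were at 607 to 2350.4 against 4.90 to 11.5 CPM in this comparison and epithelial markers at 840 to 1633 against 6985 to 9614 CPM, and their part was not tested.

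In 1% FCS LT Hspa1b, Hspa1a, Hsph1, Hsf1 and Dnajb1 were lower in Ctsd-/- cells and Hsp90aa1 was higher. Hspa1b was 4.64-fold lower in Ctsd-/- cells, 215.6 ± 41.8 against 46.5 ± 12.4 CPM (log2 FC −2.21, SE 0.246, adjusted p = 3.33e-05). Hspa1a, at 17.8 ± 5.10 against 8.26 ± 1.94 CPM, was lower by a log2 FC of −1.11 (SE 0.249, adjusted p = 0.00418), and Hsf1, at 69.8 ± 2.56 against 51.6 ± 2.98 CPM, by −0.44 (SE 0.0978, adjusted p = 0.00413). Those 3 genes did not overlap between the lines and kept their call with each sample left out. Hsph1 (430.4 ± 127 against 200.3 ± 78.7 CPM, log2 FC −1.10, adjusted p = 0.0111) and Dnajb1 (73.4 ± 6.92 against 59.8 ± 6.45 CPM, log2 FC −0.29, adjusted p = 0.0436) were also called lower, although their samples overlapped. Hsp90aa1 was called higher, at 620.5 ± 23.3 against 793 ± 100.1 CPM (log2 FC 0.35, adjusted p = 0.0361), as it was in 1% FCS. This made 1 gene higher and 5 lower, beside 20.5% and 19.1% of all genes, with a median log2 FC of −0.31 against 0.0145.

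Of those 6 calls, 3 depended on single samples. Dnajb1 was lost without any of 8 samples (Ctsd+/+ 1% FCS replicate 1, Ctsd-/- 1% FCS replicates 1 to 3, Ctsd+/+ 1% FCS LT replicates 1 and 2, and Ctsd-/- 1% FCS LT replicates 1 and 2, adjusted p 0.0517 to 0.158), Hsp90aa1 without any of 6 (Ctsd-/- 1% FCS replicate 3, all 3 Ctsd+/+ 1% FCS LT replicates, and Ctsd-/- 1% FCS LT replicates 2 and 3, adjusted p 0.0517 to 0.144), and Hsph1 without Ctsd-/- 1% FCS LT replicate 2 (adjusted p = 0.0513), when 3 genes were called. With no filter on low counts Dnajb1 and Hsp90aa1 were lost as well (adjusted p = 0.145 and 0.0551), Dnajb1 with counts taken without regard to strand (adjusted p = 0.0533), and Hsp90aa1 among the 8 samples of one library label code (adjusted p = 0.195). In this comparison the fibroblast markers were low on both sides, at 3.00 to 7.50 and 8.54 to 14.8 CPM. The 4 epithelial markers summed to 3970.3 to 4420.5 and 4959 to 5565 CPM. Of these, Cdh1 was called lower in Ctsd-/- cells (log2 FC −1.055, adjusted p = 9.4e-05), Krt18 higher (0.78, adjusted p = 0.0105) and 2 were not called. The 4 basal epithelial markers were at 18.7 to 76.5 against 3.84 to 5.46 CPM. Krt14 alone of them was called, lower in Ctsd-/- cells (log2 FC −3.78, adjusted p = 6.6e-05). The macrophage markers were at 75.6 to 94.5 against 31.8 to 50.5 CPM. The part of these markers was not tested. Of the 8 immediate early genes 5 were lower in Ctsd-/- cells, Egr1 by 10.9-fold (adjusted p = 2.17e-06), and 1 was higher. These genes respond to handling among other stimuli, and their part in this comparison was not tested. In 1% FCS, where 4 of the 8 were lower and 2 higher, Egr1 was 10.6-fold lower. Hspa8, Bag3, Hspb1 and Hsp90ab1 did not pass the test, with log2 FC of 0.20, 0.17, 0.10 and −0.32. Hsp90ab1 was called lower by DESeq2 (log2 FC −0.33, adjusted p = 0.0171) and by edgeR among the 8 samples of the library label code LR-38862 (log2 FC −0.42, adjusted p = 0.044).

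In tumors the samples of the 2 genotypes carried different library label codes, so code and genotype cannot be told apart. Hspa8 was at 2285, 2606, 2189 and 3591 CPM in control tumors 1 to 4 and at 1653, 1910.5, 1957 and 2177 CPM in MMTV-cre;Ctsd-/- tumors. The groups did not overlap, and the log2 FC of −0.47 (SE 0.242, 95% interval −1.01 to 0.07) passed the unadjusted threshold of 0.1 but not the adjusted one (adjusted p = 0.582). It was the only call among the 10, with 1 lower and 0 higher beside 8.27% and 8.44% of all genes. The call was absent when control tumor 2 or 4 or MMTV-cre;Ctsd-/- tumor 1, 2 or 3 was left out, and without control tumor 4 the log2 FC was −0.29. It was also absent with no filter on low counts (log2 FC −0.45). Without control tumor 1 (Hspa8 and Hspb1) or MMTV-cre;Ctsd-/- tumor 1 (Bag3 and Hsph1), 2 genes were called. Control tumor 4 also had the highest skeletal muscle markers, 778 CPM against 3.46 to 15.1 CPM in the other controls. MMTV-cre;Ctsd-/- tumor 1 came next at 204 CPM and had the lowest Hspa8 level of the 8 tumors, 1653 CPM. Control tumor 4 had the fewest counts of the tumors (49725437) and the highest share of reads that overlapped several genes (15.6%). The part of these in the Hspa8 difference was not tested.

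At an adjusted p of 0.05, 0 of the 10 genes passed in tumors with edgeR, limma-voom or DESeq2, 0 also had an unadjusted p under 0.05 in edgeR, and 0.00537% of all genes passed. Bag3 had the largest difference of the 10 without being called, with 61.0, 94.5, 52.2 and 38.1 CPM in controls and 50.2, 89.6, 128 and 88.1 CPM in MMTV-cre;Ctsd-/- tumors, which overlapped (log2 FC 0.53, SE 0.332). Hspa1b was at 3.99, 7.11, 4.74 and 5.60 CPM and at 4.19, 8.79, 3.26 and 3.53 CPM (log2 FC −0.12, 95% interval −0.94 to 0.71), and Hsph1 at 35.4 to 50.4 and 24.6 to 63.6 CPM (log2 FC 0.23, 95% interval −0.39 to 0.86). The inducible genes that stood apart in cultured Ctsd+/+ cells overlapped between the tumor groups. Hsp90aa1 and Hsp90ab1 had log2 FC of 0.0020 and 0.0186, Hspa1a of 0.22, Dnajb1 of −0.14, Hspb1 of −0.40 and Hsf1 of 0.32. The intervals of all 10 include 0. Adipocyte markers were at 338 to 3647 against 2430 to 13202 CPM in these groups, and with their mean log2 CPM as a covariate 1 of the 10 was called. At the tumor threshold the brown fat markers Ucp1 and Cidea were 71.8-fold and 7.52-fold higher in MMTV-cre;Ctsd-/- tumors and the endothelial markers Cdh5 and Pecam1 3.23-fold and 2.42-fold higher. The summed brown fat markers were at 3.45 to 13.96 against 9.26 to 123 CPM and the 3 endothelial markers at 26.2 to 75.3 against 40.5 to 195 CPM, and their part was not tested.

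Set side by side after joint scaling of all 20 libraries, control tumors and Ctsd+/+ cells in 1% FCS differed in material, RNA input and strand counting, so no test was made. Of the 10 genes, 4 were lower in the tumors. Hspa1b had mean levels of 5.18 CPM in control tumors and 34.7 CPM in the cells, 6.70-fold apart. Hsph1 was 3.43-fold lower (38.2 against 131 CPM), Hspb1 3.20-fold (27.2 against 87.0 CPM) and Hsp90aa1 2.48-fold (288 against 714 CPM). These 4 were at least 2-fold apart with no overlap, as were 25.2% of all 19180 genes in the same direction, and 0 of the 10 were higher in tumors, beside 37.3%. Hspa8, Hsp90ab1, Dnajb1, Bag3 and Hsf1 were less than 2-fold apart or overlapped. Hspa1a was at 4.70 and 4.81 CPM, but its log2 ratio of tumors to cells moved from −0.04 to 0.92 when cells were also counted without regard to strand.

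Other chaperone genes were read from lists by role. Of 22 other genes of the cytosolic HSP70 system, 5 rose and 6 fell with time in Ctsd+/+ cells. These shares were near the 23.0% and 23.4% of all genes. In Ctsd-/- cells with time 0 were called (5 at an unadjusted p under 0.05), beside 1.57% higher and 0.810% lower of all genes. Hspa4l, an HSP110 relative of Hsph1, rose from 75.1 ± 29.9 to 250.5 ± 23.2 CPM in Ctsd+/+ cells (log2 FC 1.74, SE 0.297, adjusted p = 0.00057), much as Hsph1 did, but its interaction of −0.86 did not pass the test (adjusted p = 0.137). Dnajb4, a J-domain relative of Dnajb1, fell from 35.0 ± 6.13 to 11.6 ± 1.34 CPM (log2 FC −1.59, adjusted p = 1.69e-05) and had an interaction of 1.80 (adjusted p = 0.000165). Dnajb6, another J-domain gene, had an interaction of −1.16 (adjusted p = 0.00192). In the interaction 4 of the 22 were higher and 3 lower, with a median of 0.03, again near the 16.1% and 14.1% of all genes.

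Among HSP90 co-chaperones, 2 of 15 rose and 3 fell with time in Ctsd+/+ cells, beside 23.0% and 23.4% of all genes. In Ctsd-/- cells 0 rose and 1 fell, beside 1.57% and 0.810% of all genes. The gene called was Unc45a, a myosin and HSP90 co-chaperone (log2 FC −0.45, adjusted p = 0.0316). There 5 of the 15 had an unadjusted p under 0.05, and the log2 FC was below 0 for 12 and above 0 for 3. Stip1, which links HSP70 to HSP90, had an interaction of −0.65 (SE 0.176, adjusted p = 0.0166) and Cdc37l1, a relative of the kinase co-chaperone CDC37, of −0.73 (adjusted p = 0.00573). Fkbp5, which is also induced by glucocorticoids, went the other way with 1.35 (adjusted p = 0.0259).

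Among 6 other small heat shock genes, 4 were tested in cells. With time in Ctsd+/+ cells 2 of these rose and 2 fell, beside 23.0% and 23.4% of all genes. In the interaction 2 were higher and 2 lower, beside 16.1% and 14.1%. In Ctsd-/- cells with time 0 were called (2 at an unadjusted p under 0.05), beside 1.57% higher and 0.810% lower of all genes. Cryab, alpha-B crystallin, rose like Hspa1a in Ctsd+/+ cells, but its mean was lower at the later time in Ctsd-/- cells. It was at 74.7 ± 16.0 and 224 ± 48.8 CPM in Ctsd+/+ cells in 1% FCS and 1% FCS LT, and at 151 ± 13.7 and 104 ± 26.1 CPM in Ctsd-/- cells. It rose in Ctsd+/+ cells (log2 FC 1.58, SE 0.214, adjusted p = 0.000107), its interaction was −2.12 (SE 0.299, adjusted p = 0.000301), and it was higher in Ctsd-/- than in Ctsd+/+ cells in 1% FCS (log2 FC 1.02) and lower in 1% FCS LT (log2 FC −1.10). Hspb8, the partner of BAG3, was at 97.5 ± 9.10 CPM in Ctsd+/+ cells in 1% FCS, with 9.98 ± 3.98 CPM in 1% FCS LT and 0.155 ± 0.105 and 1.76 ± 2.11 CPM in Ctsd-/- cells. It stood high, like Hspb6 at 32.2 ± 7.75 against 9.62 ± 2.12 to 12.9 ± 3.03 CPM, in the cell group in which fibroblast markers were high. In 1% FCS LT, Hspb8 was also lower in Ctsd-/- than in Ctsd+/+ cells (log2 FC −2.49, adjusted p = 0.00831). Fibroblast markers were then at 8.54 to 14.8 CPM in Ctsd-/- and 3.00 to 7.50 CPM in Ctsd+/+ cells. Their part in the Hspb8 and Hspb6 levels was not tested.

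Chaperones of other compartments and the cytosolic chaperonin were read in the same way, with no test between lists. Comparing the lines in 1% FCS, Ctsd-/- cells had 7 of 9 mitochondrial chaperone genes higher and 0 lower, beside 23.5% and 25.1% of all genes, among them Hspd1, which encodes HSP60 (log2 FC 0.68, adjusted p = 0.0024). Hspd1 rose in Ctsd+/+ cells with time from 430.5 ± 91.2 to 690.5 ± 31.1 CPM (log2 FC 0.68, adjusted p = 0.00247) and had an interaction of −0.84 (adjusted p = 0.00959). Of 14 chaperone genes of the endoplasmic reticulum, 9 were lower in Ctsd-/- cells in 1% FCS and 5 lower and 1 higher in 1% FCS LT (19.1% and 20.5% of all genes), led by P4hb, a protein disulfide isomerase (1559 ± 269 against 507 ± 14.7 CPM in 1% FCS). In 1% FCS LT, where fibroblast markers were at 3.00 to 14.8 CPM in both lines, P4hb was at 1382 ± 63.2 against 504 ± 37.2 CPM. With time in Ctsd+/+ cells 1 of the 14 rose and 6 fell, beside 23.0% and 23.4% of all genes, including Hspa5, which encodes BiP (log2 FC −0.81, adjusted p = 0.000963). Of 14 subunits of the chaperonin TRiC and prefoldin, 4 were higher in Ctsd-/- cells in 1% FCS, a share near that of all genes, and 0 lower, and 1 higher and 1 lower in 1% FCS LT. None of these 3 lists had a gene called with time in Ctsd-/- cells by edgeR, beside 1.57% higher and 0.810% lower of all genes. An unadjusted p under 0.05 was found for 1 of the 14 endoplasmic reticulum genes and 0 in each of the other lists.

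Other heat shock factors were read beside Hsf1. Of 4 genes, 3 were tested in cells. Hsbp1, whose product binds the trimer form of HSF1, rose with time in Ctsd+/+ cells from 69.9 ± 1.76 to 101.6 ± 5.35 CPM (log2 FC 0.54, adjusted p = 0.000208) and had an interaction of −0.63 (adjusted p = 0.00153). Hsf2 fell in Ctsd+/+ cells (log2 FC −0.36, adjusted p = 0.0353).

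**Figure D4:**
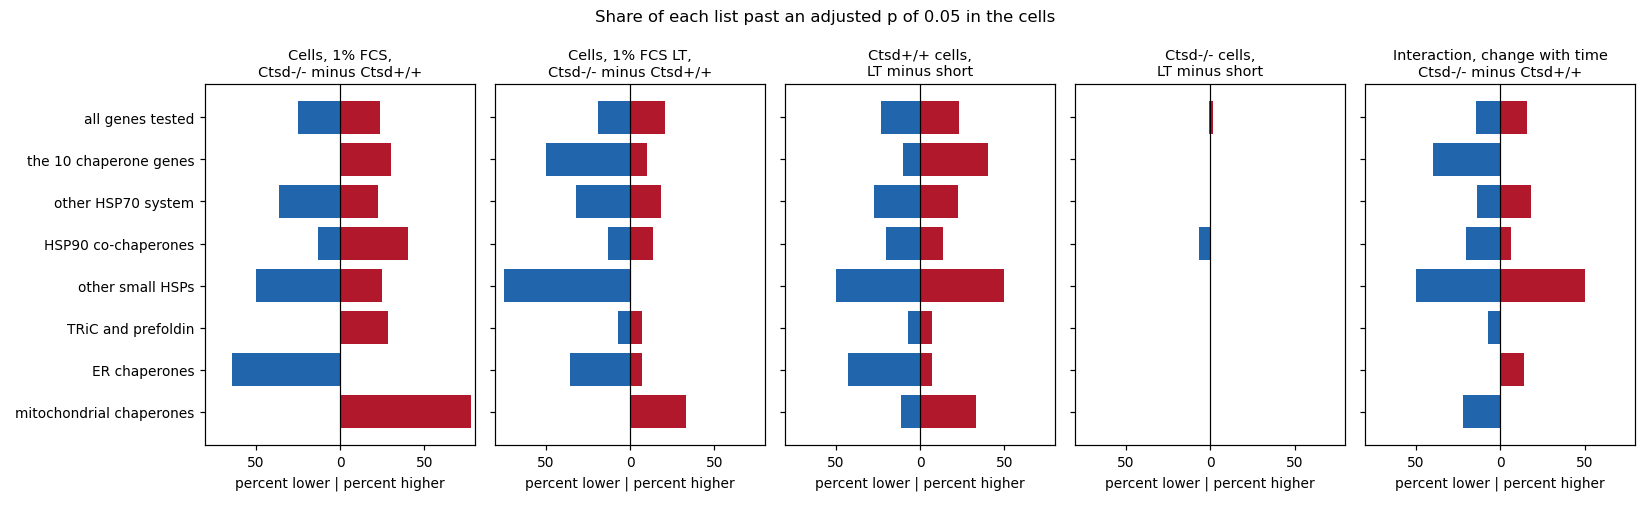
Percent of the tested genes of each list called higher (red, right) and lower (blue, left) at an adjusted p under 0.05 in cells, for 4 comparisons and the interaction, beside all genes tested. In Ctsd+/+ cells with time 4 of the 10 chaperone genes were called higher and 1 lower, and in the interaction 4 were called lower and 0 higher.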

How the data were processed

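RNA from 8 tumors and 12 cell samples was sequenced. Per the methods, reads were trimmed (Trimmomatic) and aligned to GRCm38 (STAR). The authors deposited unnormalized counts for each Ensembl gene in 3 forms, without regard to strand, for the own strand and for the opposite strand. The annotation release is not given in the sources used here. Counts without regard to strand were used in tumors (52.8% to 53.7% on the opposite strand) and opposite-strand counts in cells (97.1% to 97.3%). Reads that overlapped several genes (7.11% to 15.6% per tumor, 1.11% to 1.25% per cell sample) and reads with several positions (4.57% to 8.28%) were not assigned. Such reads, and those on no gene, stayed out of library sizes.

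Symbols and positions were taken from GENCODE M21, which held 45143 of 45706 identifiers. Counts were analyzed in R 4.3.3 with edgeR 4.0.16 (filterByExpr, TMM, glmQLFit and glmQLFTest, two-sided) and Benjamini-Hochberg adjustment over all genes tested. A gene was called at an unadjusted p under 0.1 in tumors, the methods' threshold, and at an adjusted p under 0.05 in cells, where the 12 samples shared one fit. Where no tool is named, an adjusted p is from edgeR. The alternatives were limma-voom (limma 3.58.1), DESeq2 1.42.0, its size factors, no filter on low counts, the other count form, adipocyte markers as a covariate, one library label code, the replicate block and each sample left out. Another, the summed counts of Hspa1a and Hspa1b, was added after the data were seen. The fits were tested on simulated data.

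The members and lists were chosen with earlier results of these data known. Besides the 10 genes and Ctsd, the rule named up to 3 called genes per list and comparison with the largest absolute log2 FC and no overlap between groups (interaction: called only). The interaction of Hspa4l was added after its value was seen, and not every gene the rule names is printed. List gene Hspa14, with no single match, was left out. Replicates of a group differed by more than sampling noise (chi-square per gene 16.5 to 616). At these depths counting error is small beside the spread between samples for genes above a few CPM.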

Additional observations from a re-analysis of the deposited data

Results flagged for a closer look

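Each group of 4 tumors was examined for a sample far from the rest, for each of the 10 genes. Of these 20 groups 3 held one, and chance alone gives about 1 in 20. Hspa1b was at 8.79 CPM in MMTV-cre;Ctsd-/- tumor 2, above 3.26 to 4.19 CPM in the other three. Hsph1 was at 50.4 CPM in control tumor 2, above 35.4 to 36.6 CPM. Hsp90aa1 was at 206 CPM in MMTV-cre;Ctsd-/- tumor 1, below 319 to 337 CPM.

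The change from 1% FCS to 1% FCS LT differed between the Ctsd-/- and Ctsd+/+ lines, by the interaction test, in 4 of the 10 genes: Hspa1a (−1.85), Hspa1b (−2.20), Hsph1 (−1.45) and Hsp90ab1 (−0.63, all as log2). All 4 were lower, beside 14.1% of all genes tested called lower and 16.1% higher. Hsph1 lost its call without any of 3 samples and Hsp90ab1 without any of 7. Each genotype is represented by the cells of one mouse, so line and genotype cannot be told apart.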

How the results depend on the processing

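The rise of Hspa1b, Hspa1a and Hsph1 in Ctsd+/+ cells kept its direction and call under every alternative run, as did the interactions of Hspa1a and Hspa1b. With 1 sample left out at a time, the number of the 10 genes called was 5 in each case for Ctsd+/+ cells with time (5 with all samples), 2 to 6 in the interaction (4), 1 to 5 in 1% FCS (3), 3 to 6 in 1% FCS LT (6), 0 to 1 in Ctsd-/- cells with time (0) and 0 to 2 in tumors (1). DESeq2 called 5 in 1% FCS, 7 in 1% FCS LT and 1 in Ctsd-/- cells with time, where 1 was also called with no filter and in LR-38862 alone. With no filter 0 were called in tumors. The causes of these shifts were not tested. Of the 10 genes Hspa1a had the fewest counts in cells, 122 to 922 per sample, and so the widest counting error.

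Same-numbered samples had correlated deviations over 0.1 in 0 of 4 tumor pairs and 7 of 18 cell pairs. Replicate numbers thus do not pair the tumors but may pair some cell samples. Between the lines in 1% FCS the correlations were 0.362 and 0.299 for replicates 1 and 3 and just under 0.1 for replicate 2. The mean of other pairs there was −0.126. Same-numbered pairs of Ctsd+/+ 1% FCS LT with either 1% FCS group ran from −0.295 to 0.0131. Replicate 1 of both lines in 1% FCS shared a library label code that no other sample carried, as did replicate 3 in 1% FCS LT. With the replicate block 0 of the 10 were called in tumors and 1, Hspb1, in Ctsd-/- cells with time. Hspb1 was then also called in 1% FCS (log2 FC 0.64, adjusted p = 0.0108) and with time in Ctsd+/+ cells (−0.46, adjusted p = 0.0453), and Dnajb1 was not called in 1% FCS LT (adjusted p = 0.0511). Calls over all genes went from 3112 to 1816 in tumors and from 7041 to 7156 in Ctsd+/+ cells with time.

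The values whose sign turned under an alternative were all of genes not called in that comparison. In tumors Hsp90aa1 was −0.00467 with limma-voom, −0.00900 with DESeq2 and with its size factors, −0.00473 with the block and −0.36 with adipocyte markers as covariate. Hsp90ab1 was −0.00447, −0.000570 and −0.0160 with limma-voom, the block and the covariate. Hspa1b was 0.20 with the covariate and 0.0506 when summed with Hspa1a, and 0.11 when so summed in 1% FCS. In LR-38862 alone Hspa1b was 0.0220 in 1% FCS, Hspb1 −0.0394 in 1% FCS LT, and Hspa1a −0.11 and Hsph1 −0.0966 in Ctsd-/- cells with time, where Hspa1a was −0.00646 with limma-voom and −0.0104 with the block. With 1 sample left out, ranges that crossed 0 were −0.12 to 0.15 (Hsp90aa1), −0.15 to 0.18 (Hsp90ab1) and −0.55 to 0.0514 (Hspa1b) in tumors, −0.22 to 0.17 (Hspa1b) in 1% FCS, −0.11 to 0.27 (Hspb1) in 1% FCS LT, −0.11 to 0.0125 (Hsp90ab1), −0.18 to 0.17 (Hspa1a) and −0.12 to 0.42 (Hsph1) in Ctsd-/- cells with time, and −0.16 to 0.0194 (Hsp90aa1) in the interaction.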
